A study of Macaca fascicularis with 44 samples.

Results

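Imprinted genes are expressed from one parental copy, and many of them act on fetal and placental growth. A list of 9 such genes was named: DLK1, IGF2, PEG3, PEG10, MEST, CDKN1C, PHLDA2, GRB10 and PLAGL1. Of these, 7 had a row under their symbol among the 21834 genes of the counts table, and IGF2 and CDKN1C were not analysed here. No measured value entered the rule that named the genes, but the list was chosen with earlier results of these data known. The 7 genes are DLK1, PLAGL1, MEST, PEG3, PEG10, PHLDA2 and GRB10, and each was measured as total expression, so that nothing below says which parental allele a count came from.

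In mammals most of these genes sit in clusters controlled by a methylated region on one parental chromosome. In mice and humans DLK1, PLAGL1, MEST, PEG3 and PEG10 are known as paternally expressed genes, which mostly favour growth. PHLDA2 is known as maternally expressed and as a brake on placental growth in mice, and GRB10 encodes an adaptor that dampens insulin and IGF receptor signalling. The placenta and the extraembryonic mesoderm are tissues in which several of them are known to be active.

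RNA of single cells was sequenced from wild type cynomolgus monkey embryos (Macaca fascicularis), made by sperm injection and cultured from the blastocyst on, with extraembryonic tissue removed at dissection per the labels' protocols. Of 44 libraries, 42 (3533 cells) could be placed at a day. They came from 9 embryos: 2 of day E16 (E16-1, male, and E16-2, female) and 1 each of E18 (male), E20 (female), E21 (male), E22 (female), E23 (male), E24 (female) and E25 (female). Day and embryo therefore cannot be told apart after E16, and sex, which differed between days, was not a term in the fits. Cells carried 1 of 12 class names and 1 of 26 fine cluster numbers given by the authors.

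Libraries held 22 to 96 cells and 4393315 to 30568931 counts, embryos 23304903 to 150925482 counts, and the median cell 110109 counts. Levels are given on the counts-per-million scale (CPM), a gene's counts scaled to the total of the summed cells. CPM are not divided by gene length and are compared within a gene only. A level per embryo was taken where a class held at least 10 cells of that embryo. Class names were checked against their known markers: in EXMC (extraembryonic mesenchyme) 4 of 6 markers were highest in their own class, in EVT (extravillous trophoblast) 5 of 6, in STB (syncytiotrophoblast) 4 of 6, in EPI (epiblast) 4 of 5, in PS and derivative (primitive streak) 5 of 6 and in Endoderm 6 of 6. In Non-neural ectoderm 3 of 6 were, in Neural ectoderm 2 of 6 with 2 others at 0, in CTB (cytotrophoblast) 1 of 6, TP63, and in Mesoderm and Extraembryonic Mesoderm 0 of 6. Blood cells had 5 of 6 erythroid markers at 0. All class names are used below as the authors gave them.

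The 7 genes divided the embryo between them. DLK1, PLAGL1 and MEST were highest in EXMC, PEG3 in CTB, PEG10 in CTB and STB, and PHLDA2 in STB, CTB and EVT. GRB10 had a narrow range, with its highest pooled levels in PS and derivative and in EXMC. EPI lay below the mean of the other classes compared for all 7, but it was not the lowest class for each. Pooled DLK1 was at 98.0 CPM in EPI and 48.4 CPM in CTB, and pooled PHLDA2 at 25.1 CPM in EPI and 5.46 CPM in Mesoderm.

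**Figure D1:**
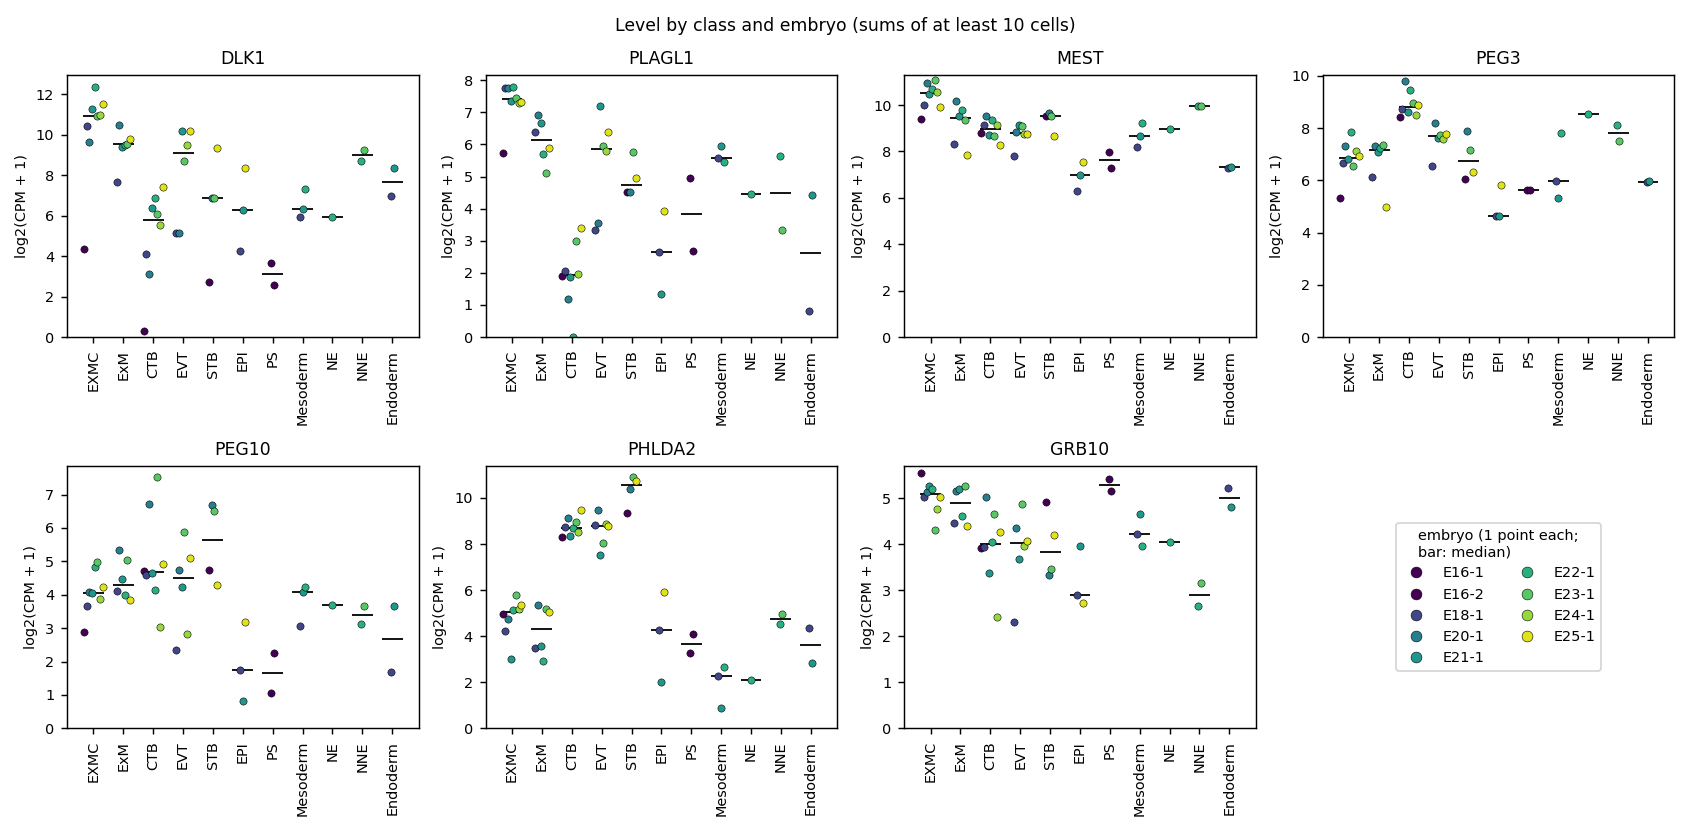
Level of each gene as log2(CPM + 1) by class, 1 point per embryo (colour, E16 dark to E25 light) and a bar at the median; ExM is Extraembryonic Mesoderm, PS is PS and derivative, NE and NNE are Neural and Non-neural ectoderm. The dark point far below the other EXMC points of DLK1 is E16-2 at 19.3 CPM, and the 3 trophoblast classes stand above all others for PHLDA2.

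To place these patterns beside all genes, counts were summed per class and embryo, and each of 7 classes was set against the mean of the other 6, with the embryo as a block (edgeR quasi-likelihood test, Benjamini-Hochberg adjustment over 14166 genes and 7 contrasts, threshold 0.05). The p-values are descriptive, because these genes may already have helped the authors to define the classes. Of the 49 contrasts of the imprinted growth genes 24 passed, where 19.9% of all gene contrasts did. In EXMC 4 of the 7 genes were higher and 1 lower (24.5% of all genes called in either direction). In Extraembryonic Mesoderm 2 were higher and 1 lower (19.7% of all genes), in CTB 3 higher and 2 lower (27.9% in either direction), in EVT 2 higher (12.5% of all genes called higher) and in STB 2 higher (20.5%). In EPI 6 were lower (19.4%), and in Mesoderm 1 was lower (11.3%). The median log2 fold of the 7 genes was 1.11 in EXMC and −1.99 in EPI, beside 0.09 and −0.07 over all genes tested.

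**Figure D2:**
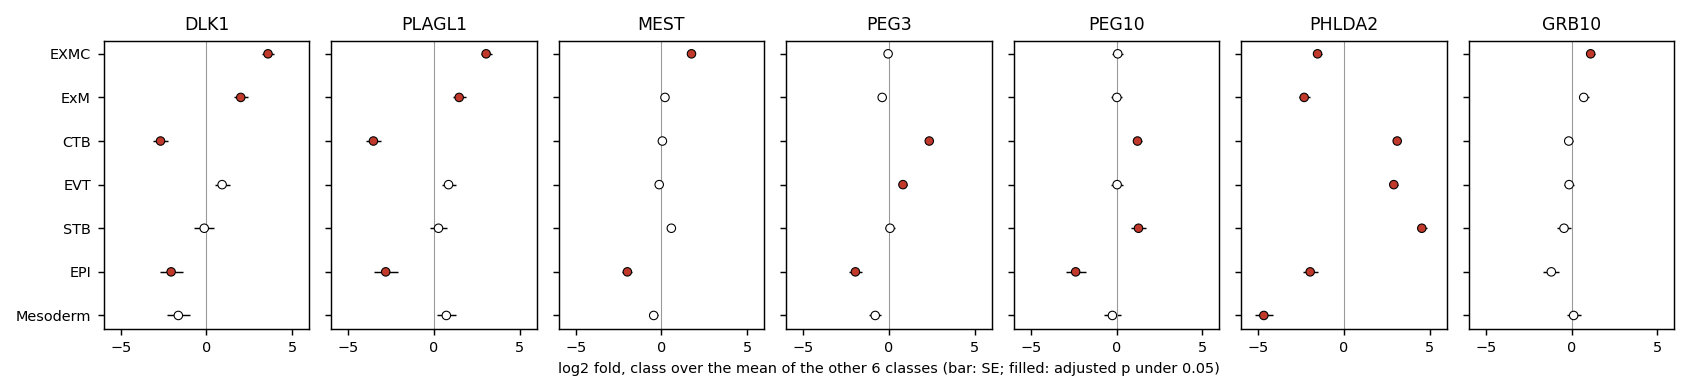
Log2 fold of each class over the mean of the other 6 classes for each gene, with its standard error as a bar and filled points where the adjusted p is under 0.05; ExM is Extraembryonic Mesoderm. DLK1 and PLAGL1 stand to the right in EXMC (3.59 and 3.04) and to the left in CTB (−2.68 and −3.53), while PHLDA2 has the opposite sign in both (−1.55 and 3.10).

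DLK1 encodes a membrane protein of the Delta and Notch ligand family that is best known for holding back differentiation, as in fat precursors. Its level in EXMC was lowest at 19.3 CPM in E16-2, had a median of 1962 CPM over 8 embryos and was highest at 5276 CPM in E22. In CTB of the same 8 embryos it ran from 0.246 CPM in E16-2 through a median of 56.0 CPM to 168 CPM in E25. EXMC was above CTB in 8 of 8 embryos, by 5.20 ± 0.92 on the log2(CPM + 1) scale (SD of the paired difference). The class contrast of EXMC was a log2 fold of 3.59 ± 0.35 (SE, adjusted p = 3.173e-09), and that of CTB −2.68 ± 0.46 (adjusted p = 5.315e-05).

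Extraembryonic Mesoderm followed, with DLK1 at 204 CPM in E18, 1442 in E20, 669 in E21, 723 in E22, 737 in E23 and 875 in E25. Those levels lay under the EXMC level of the same embryo in 5 of 6 embryos, the exception being E20. The contrast of Extraembryonic Mesoderm was 2.00 ± 0.42 (adjusted p = 0.0007458), and 1.17 without E20. Among embryonic classes DLK1 was highest in Non-neural ectoderm, with 417 CPM in E22 and 602 CPM in E23, and Endoderm had 124 CPM in E18 and 327 CPM in E21. By the median over embryos DLK1 was lowest in PS and derivative, with 11.6 CPM in E16-1 and 5.04 CPM in E16-2. That class had enough cells in the E16 embryos only, and CTB of E16-2 was lower still, at 0.246 CPM. After EXMC, the order of classes by median (Extraembryonic Mesoderm, EVT, Non-neural ectoderm, Endoderm, STB, Mesoderm, EPI, Neural ectoderm, CTB, PS and derivative) held no neighbouring pair with 2 or more shared embryos that differed by more than its spread.

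In CTB and EVT the DLK1 level ran close to many EXMC markers as a percent of the EXMC level, with exceptions such as POSTN in E20. In CTB the gene stood at 0.961% (E20) to 5.83% (E25) of its EXMC level in the same embryo, and in E25 the collagen genes COL1A1 and COL3A1 stood at 5.73% and 5.48% of theirs, DCN at 4.64% and LUM at 5.95%. In E20 those percentages were 1.17, 1.10, 0.721 and 1.10, while COL6A1 stood at 2.90% and POSTN at 11.6%. In E16-2 DLK1 was at 1.28%, below the 6 EXMC markers, which were at 2.45 to 8.69%. In EVT DLK1 stood at 2.51% of the EXMC level in E18, 4.41% in E20, 47.1% in E21, 21.6% in E23, 35.9% in E24 and 40.7% in E25, beside 3.38, 4.87, 36.9, 20.4, 29.1 and 41.1% for COL3A1. DLK1 was below each of the 6 markers in E18, where COL6A1 was lowest at 3.17%. It was above each of the 6 in E21 (highest marker COL1A1 at 44%) and in E24 (highest marker COL3A1). POSTN stood apart in E20, at 39.1%. In STB DLK1 stood at 29.1% in E16-2, 14.9% in E20, 6.02% in E23 and 22.6% in E25, beside 38.1, 6.71, 17.2 and 23.7% for COL3A1 and 6.48, 83.1, 16.7 and 3.06% for POSTN. No EXMC marker was at 0 in any of these sums. The share of the DLK1 level in trophoblast that comes from EXMC material was not tested.

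**Figure D3:**
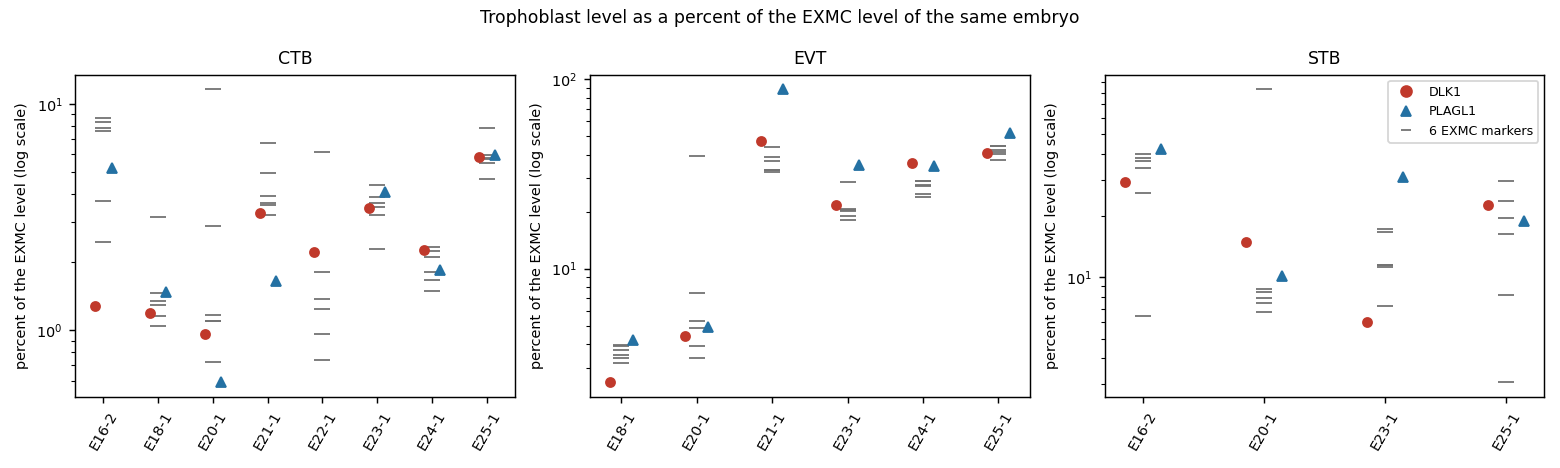
Level in CTB, EVT and STB as a percent of the EXMC level of the same embryo (log scale) for DLK1 (circles), PLAGL1 (triangles) and the 6 EXMC markers COL1A1, COL3A1, COL6A1, POSTN, LUM and DCN (dashes); PLAGL1 in CTB of E22 had 0 counts and is not drawn. In EVT the circle lies below the 6 dashes in E18 (2.51%) and above them in E21 (47.1%) and E24 (35.9%). The dash far above the circle of E20 is POSTN at 39.1%.

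One fine cluster stood out for DLK1 when the EVT cells of all embryos were pooled. Cluster 18 (86 cells) had 1424 CPM, against 73.9 CPM in the other EVT clusters pooled (444 cells). Its 6 EXMC markers summed to 20010 CPM, against 1854 CPM in the other clusters, and its 6 CTB markers to 418 CPM, against 1062 CPM. In the embryos with at least 10 cells on both sides the DLK1 levels were 2141 CPM in cluster 18 and 245 CPM in the rest in E24, and 1486 and 192 CPM in E25. In the other embryos cluster 18 held few EVT cells or the rest held few: outside it DLK1 was at 22.05 CPM in E18 (62 of 64 EVT cells), 28.39 CPM in E20 (160 of 164) and 339.1 CPM in E23 (144 of 146), beside 34.54, 34.55 and 418.6 CPM over all EVT cells of those embryos. The EVT contrast of DLK1 did not pass (0.92 ± 0.43, adjusted p = 0.1406), and with the cells of cluster 18 left out, a choice made after seeing the data, it was −0.76. That of PLAGL1 was 0.85 ± 0.41 (adjusted p = 0.1483) with the cluster and −0.27 without it. Without E20 both passed as higher, DLK1 at 1.28 (adjusted p = 0.00705) and PLAGL1 at 1.14 (adjusted p = 0.044). With counts summed per library, over 5 classes, both genes were called lower in EVT, DLK1 at −1.93 (adjusted p = 0.000509) and PLAGL1 at −1.89 (adjusted p = 3.31e-05), although embryo sums over the same 5 classes, an alternative also added after seeing the data, gave 0.49 and 0.31 and did not pass. A library sum needs 10 cells of a class in 1 library, so these sums also leave out cells.

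Day E16 stood apart within DLK1. The 7 libraries of E16, from 2 embryos, had 5.36 to 22.2 CPM over all their cells, and the lowest of all later libraries, at E20, had 149.7 CPM. How many of all genes separate E16 in this way was not counted. Cell makeup differed too, since 189 of the 208 cells of E16-1 were PS and derivative. Within EXMC the difference remained, with 19.3 CPM in E16-2 (188 cells) and 784 CPM in E20, the next lowest embryo. Of those 188 cells 184 were in fine cluster 6, whose 11 cells of E21 had 347 CPM. The EXMC markers of E16-2 summed to 14610 CPM, against 29780 to 43880 CPM in the EXMC of the other 7 embryos. Every cell of both E16 embryos also carried a condition code of its own in the annotation, 96-2, whose meaning is not given in the sources used here, so day E16 and that code cannot be told apart. All 547 cells of E23 carried another code, ibidi-1, and the remaining cells none, so E23 and its code cannot be told apart either.

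PLAGL1, a zinc finger transcription factor that restrains cell proliferation in cultured cells, followed DLK1 across the classes. In EXMC it had 51.8 CPM in E16-2, a median of 168 CPM and at most 220 CPM in E22. In CTB it had a median of 2.80 CPM and at most 9.45 CPM, and in CTB of E22 (12 cells) it had 0 counts of 2180730, which allows up to 1.38 CPM. Each EXMC level was above each CTB level, and the number of all genes of which this holds was not counted. The contrasts were 3.04 ± 0.33 for EXMC (adjusted p = 2.699e-08) and −3.53 ± 0.46 for CTB (adjusted p = 8.623e-07). After each cell was thinned to 20000 counts, 71.8% of 1063 EXMC cells had a count and 7.44% of 497 CTB cells did (85.2% and 30.4% unthinned, at median depths of 107221 and 172560 counts per cell).

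In the embryonic mesoderm the contrasts of PLAGL1 and DLK1 had opposite signs, and neither passed. Mesoderm had 46.8 CPM in E18, 60.6 in E21 and 42.6 in E22, which was 0.72 ± 0.54 above the mean of the other classes and did not pass (adjusted p = 0.3958), whereas the DLK1 contrast of Mesoderm was −1.64 ± 0.67 (adjusted p = 0.0842). The difference between the genes was not tested. Extraembryonic Mesoderm lay below EXMC for PLAGL1 in 6 of 6 embryos (33.3 to 121 CPM), and its contrast of 1.47 ± 0.38 (adjusted p = 0.00528) was 1.05 (adjusted p = 0.0549) without E20. In EVT the level was 8.99 CPM in E18, 10.7 in E20, 145 in E21, 60.9 in E23, 54.4 in E24 and 83.1 in E25, the same step between E20 and E21 that DLK1 and 5 of the 6 EXMC markers showed. As a percent of EXMC it stood at 88.6% in E21, above each of the 6 markers, of which COL1A1 was highest at 44% and LUM lowest at 32.5%.

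MEST, which encodes a membrane-bound enzyme-like protein of the alpha/beta hydrolase family, was present throughout: after thinning 58.8% (Blood cells) to 98.6% (EXMC) of the cells of a class had a count. EXMC had 674 CPM in E16-2, 1010 in E18, 1960 in E20, 1439 in E21, 1668 in E22, 2160 in E23, 1510 in E24 and 974 in E25. It was above CTB in 8 of 8 embryos and above EVT in 6 of 6, and above STB in 3 of 4. The contrast was 1.75 ± 0.15 (adjusted p = 2.156e-10). Non-neural ectoderm came next, at 980 CPM in E22 and 993 CPM in E23, below the EXMC of both embryos. By the median over embryos EPI was lowest, at 78.0 CPM in E18, 126 in E21 and 184 in E25, although Endoderm had 155 and 160.0 CPM in its 2 embryos and pooled cells were lower in Endoderm (152 CPM) and Blood cells (124 CPM) than in EPI (235 CPM). The EPI contrast was −1.99 ± 0.29 (adjusted p = 5.997e-06). Between STB, Extraembryonic Mesoderm and CTB, which followed each other in the order, the paired differences were not above their spread.

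Within EXMC the fine clusters differed in these genes. Cluster 9 had the highest pooled MEST level (1914 CPM; with CPM averaged over cells it had 1721 CPM, below the 1742 CPM of cluster 1) with 1540 CPM of DLK1, while cluster 4 had 841 CPM of MEST and 2729 CPM of DLK1. In E18, where both clusters had at least 10 cells, MEST was at 1828 CPM in cluster 9 and 447 CPM in cluster 4, and DLK1 at 589 and 1611 CPM. PLAGL1 ran from 170 to 193 CPM in 6 of the 7 EXMC clusters and was at 50.6 CPM in cluster 6, which was also lowest for DLK1 (45.7 CPM), MEST (703 CPM), PEG3 (40.7 CPM) and PEG10 (6.78 CPM), and it was highest for GRB10. Since 184 of the cells of cluster 6 came from E16-2, these pooled values compare embryos as well as clusters. Within E21 cluster 6 (11 cells) was again lowest for DLK1, at 347 CPM against 1443 to 3257 CPM in clusters 1, 10 and 21. The same held for PLAGL1 (50.6 against 148.8 to 178.6 CPM), PEG3 (50.2 against 82.6 to 137.7) and MEST (1130 against 1225 to 1560). PEG10 was lower in cluster 10 (8.54 CPM) than in cluster 6 (12.4 CPM). For GRB10 cluster 6 had the lowest level in E21, 25.1 CPM, against 34.2, 39.4 and 54.2 CPM in clusters 1, 10 and 21.

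**Figure D4:**
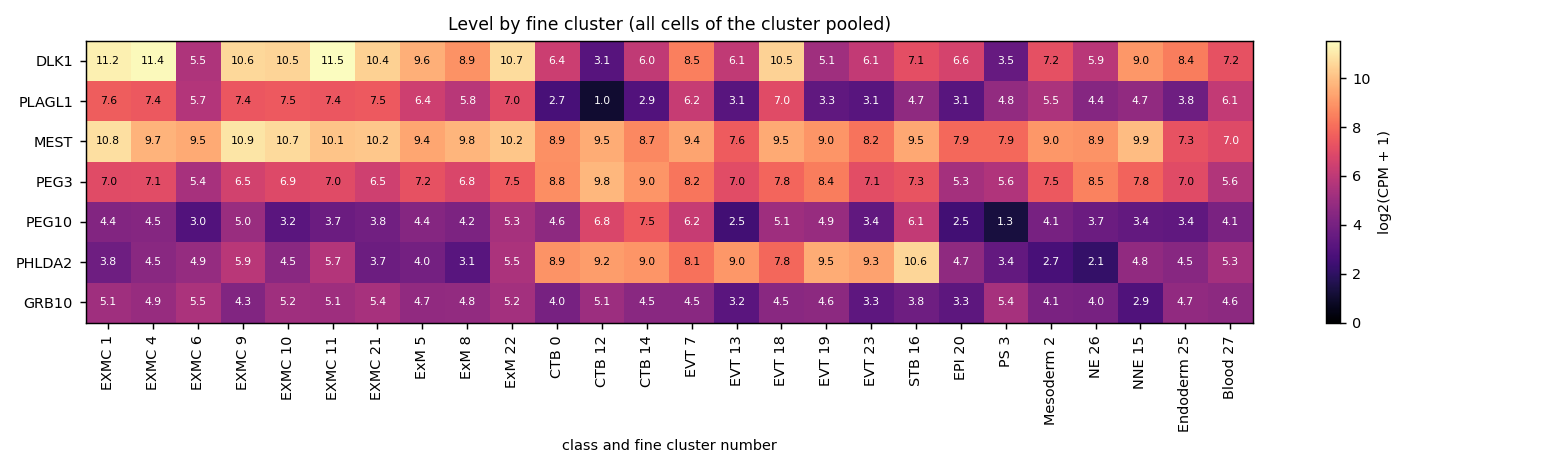
Level of each gene as log2(CPM + 1) in each of the 26 fine clusters, all cells of a cluster pooled and clusters ordered by class; ExM is Extraembryonic Mesoderm, PS is PS and derivative, NE and NNE are Neural and Non-neural ectoderm. EXMC cluster 6 is dark for DLK1 at 45.7 CPM beside the other EXMC clusters, and EVT cluster 18 is bright at 1424 CPM.

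PEG3, a large zinc finger protein with known roles in placental and maternal traits of mice, marked CTB. It had 342 CPM in E16-2, a median of 451 CPM and at most 887 CPM in E20. CTB was above every other class in every embryo that held at least 10 cells of both, 8 of 8 for EXMC, 6 of 6 for EVT and 4 of 4 for STB. Its contrast was 2.35 ± 0.18 (adjusted p = 3.893e-11). After thinning, 97.4% of CTB cells had a count, against 47.1% of EXMC cells. EVT had 93.4 CPM in E18, 294 in E20, 196 in E21, 214 in E23, 189 in E24 and 219 in E25, with a contrast of 0.81 ± 0.22 (adjusted p = 0.006486). That EVT value was 0.10 (adjusted p = 0.657) with counts summed per library over 5 classes, and 0.44 (adjusted p = 0.198) with embryo sums over the same 5. Among embryonic classes Neural ectoderm was highest, at 373 CPM in E22, its one embryo with enough cells, where CTB had 702 CPM.

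PEG10, a gene derived from a retrotransposon and required for the placenta of mice, was high in part of the CTB. By embryo, CTB had 7.21 CPM in E24, a median of 24.7 CPM, 105 CPM in E20 and 183 CPM in E23. CTB was below EXMC in E22 (16.5 against 27.5 CPM) and E24 (7.21 against 13.6 CPM), and above it in the other embryos with both. The level followed the fine clusters, at 24.1 CPM in cluster 0, 109 CPM in cluster 12 and 181 CPM in cluster 14. In E20, which had at least 10 cells of all 3, it was 2.25 CPM in cluster 0 (17 cells), 108 CPM in cluster 12 (137 cells) and 152 CPM in cluster 14 (11 cells). Cluster 12 came almost wholly from E20 (137 of 138 cells) and cluster 14 mostly from E23 (112 of 125 cells), the embryo with the code ibidi-1, so cluster, embryo and code overlap. The CTB contrast was 1.22 ± 0.29 (adjusted p = 0.002187). Outside CTB, EVT cluster 7 had a pooled PEG10 level of 73.6 CPM, beside 68.7 CPM in STB.

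STB had PEG10 levels of 25.6 CPM in E16-2, 103 in E20, 90.7 in E23 and 18.6 in E25, and CTB exceeded it in 3 of those 4 embryos by less than the spread. The STB contrast was 1.28 ± 0.41 (adjusted p = 0.0257), and it did not pass when E16-2, E20, E21 or E23 was left out, with 0.94 (E20) to 1.24 (E23). PS and derivative had 1.06 CPM in E16-1 and 3.78 CPM in E16-2, and EPI 0.770 to 8.09 CPM.

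PHLDA2, a small PH domain protein, divided trophoblast from everything else. In STB it had 660 CPM in E16-2, 1325 in E20, 1901 in E23 and 1729 in E25. In CTB it ran from 311 CPM in E16-2 to 720 CPM in E25 with a median of 420 CPM, and in EVT from 185 CPM in E21 to 717 CPM in E20 with a median of 445 CPM. No embryo sum of another class exceeded 59.1 CPM, the EPI of E25. How many of all genes part the trophoblast classes from the rest in this way was not counted. STB was above CTB in 4 of 4 embryos, by 1.39 ± 0.38 on the log2(CPM + 1) scale, and above EVT in 3 of 3. EVT and CTB did not differ by more than their spread. The contrasts were 4.54 ± 0.29 for STB (adjusted p = 8.769e-13), 3.10 ± 0.21 for CTB (adjusted p = 3.002e-12) and 2.90 ± 0.24 for EVT (adjusted p = 1.719e-10). They were −1.55 ± 0.26 for EXMC, −2.33 ± 0.31 for Extraembryonic Mesoderm, −1.98 ± 0.43 for EPI and −4.68 ± 0.54 for Mesoderm, which all passed. Mesoderm held 0.819 to 5.40 CPM, the lowest range of these 7 classes.

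Over the pooled cells of the EVT clusters the PHLDA2 level mostly ran against that of DLK1. PHLDA2 was at 726 CPM in cluster 19, 639 in cluster 23 and 522 in cluster 13, but 276 CPM in cluster 7 and 229 CPM in cluster 18. DLK1 in those clusters was at 34.2, 68.2, 66.3, 349.5 and 1424 CPM. Cluster 19 held cells of E20 only, and 130 of the 192 cells of cluster 7 came from E23, so these values compare embryos too. Within E20 DLK1 was at 5.22, 13.8, 14.8 and 34.2 CPM in clusters 13, 7, 23 and 19. PHLDA2 there was at 524, 483, 840 and 726 CPM, so the levels did not run against each other. Within E24 they did, with DLK1 at 129, 419 and 2141 CPM and PHLDA2 at 671, 355 and 231 CPM in clusters 13, 23 and 18. In E18 the order was mixed.

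GRB10 had low counts and a narrow range. In EXMC it had 18.9 CPM in E23, a median of 32.9 CPM and 45.5 CPM in E16-2, and PS and derivative had 41.6 CPM in E16-1 and 34.5 CPM in E16-2. EXMC exceeded CTB in 7 of 8 embryos, and its contrast was 1.11 ± 0.25 (adjusted p = 0.001357), the one GRB10 contrast of 7 that passed. Between PS and derivative and EXMC there was 1 shared embryo, E16-2, in which EXMC was the higher. The lowest pooled levels were in Non-neural ectoderm (6.53 CPM) and EPI (8.72 CPM).

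EPI, the class closest to the pluripotent cells, was below the mean of the other classes for 6 genes: DLK1, PLAGL1, MEST, PEG3, PEG10 and PHLDA2, with log2 folds from −1.96 (PEG3) to −2.82 (PLAGL1). GRB10 was at −1.18 ± 0.46 (adjusted p = 0.06937). These values rest on 12 to 23 cells in each of 3 embryos. With at least 20 cells required, which keeps 1 EPI embryo, 4 of the 6 no longer passed, and DLK1 (−2.06 ± 0.68, adjusted p = 0.02891) did not pass without E18 (adjusted p = 0.157), without E21 (adjusted p = 0.13) or with EVT cluster 18 left out (adjusted p = 0.0612).

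Change over days was asked with a slope of day in log2 units per day, on sums per embryo (edgeR quasi-likelihood test). Over all cells of an embryo DLK1 was at 11.5 CPM in E16-1, 14.5 in E16-2, 395 in E18, 327 in E20, 1624 in E21, 507 in E22, 705 in E23, 979 in E24 and 1757 in E25. Its slope was 0.59 ± 0.18 per day (adjusted p = 0.4138). No imprinted growth gene passed, and 0% of 15835 genes did, with 1543 genes at an unadjusted p under 0.05. DESeq2 called 196 genes, 1 of them an imprinted growth gene, DLK1 (adjusted p = 0.00183). Without the E16 embryos the DLK1 slope was 0.27.

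Counting libraries of an embryo as independent gave 2435 genes past the threshold (18.5%) and 5 of the 7 imprinted growth genes: DLK1 (0.54 per day, adjusted p = 3.74e-05), PEG3, PEG10, MEST and PLAGL1, all with positive slopes. With the embryo as a correlated block (limma-voom) 197 genes passed, DLK1 and PEG3 among them. With the library code of the labels as a further term, DLK1 was at 0.05 per day (adjusted p = 0.843) and PHLDA2 alone of the 7 passed (0.79 per day, adjusted p = 0.00134), as did 1338 of 17167 genes. A code that covers a single day adds nothing to this slope, and those of E16, E18, E20 and E23 do so. The slope with the code therefore rests on libraries of E21, E22, E24 and E25, counted as independent, and cannot be set against the slope over all days. Within classes, library sums gave 1 of the 7 genes in CTB, 2 in EVT, 2 in EXMC and 0 in Extraembryonic Mesoderm, where 3.36%, 6.88%, 1.73% and 2.12% of all genes passed.

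PHLDA2 differed widely between embryos when all cells were summed, with 9.18 CPM in E16-1, 96.5 in E16-2, 213 in E18, 527 in E20, 38.3 in E21, 31.97 in E22, 346 in E23, 536 in E24 and 304 in E25. CTB, EVT and STB together made up 0.962% of the cells of E16-1, 11.3% of E21 and 4.73% of E22, the 3 embryos lowest in PHLDA2, and 15.4 to 68.9% in the other 6, and PHLDA2 was highest in E20 and E24, which held most trophoblast (68.9% and 61.3%). The slope over all cells was 0.26 ± 0.16 (adjusted p = 0.6166). The part of cell makeup in the slopes was not tested, and within a class the fine clusters also differed between embryos.

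**Figure D5:**
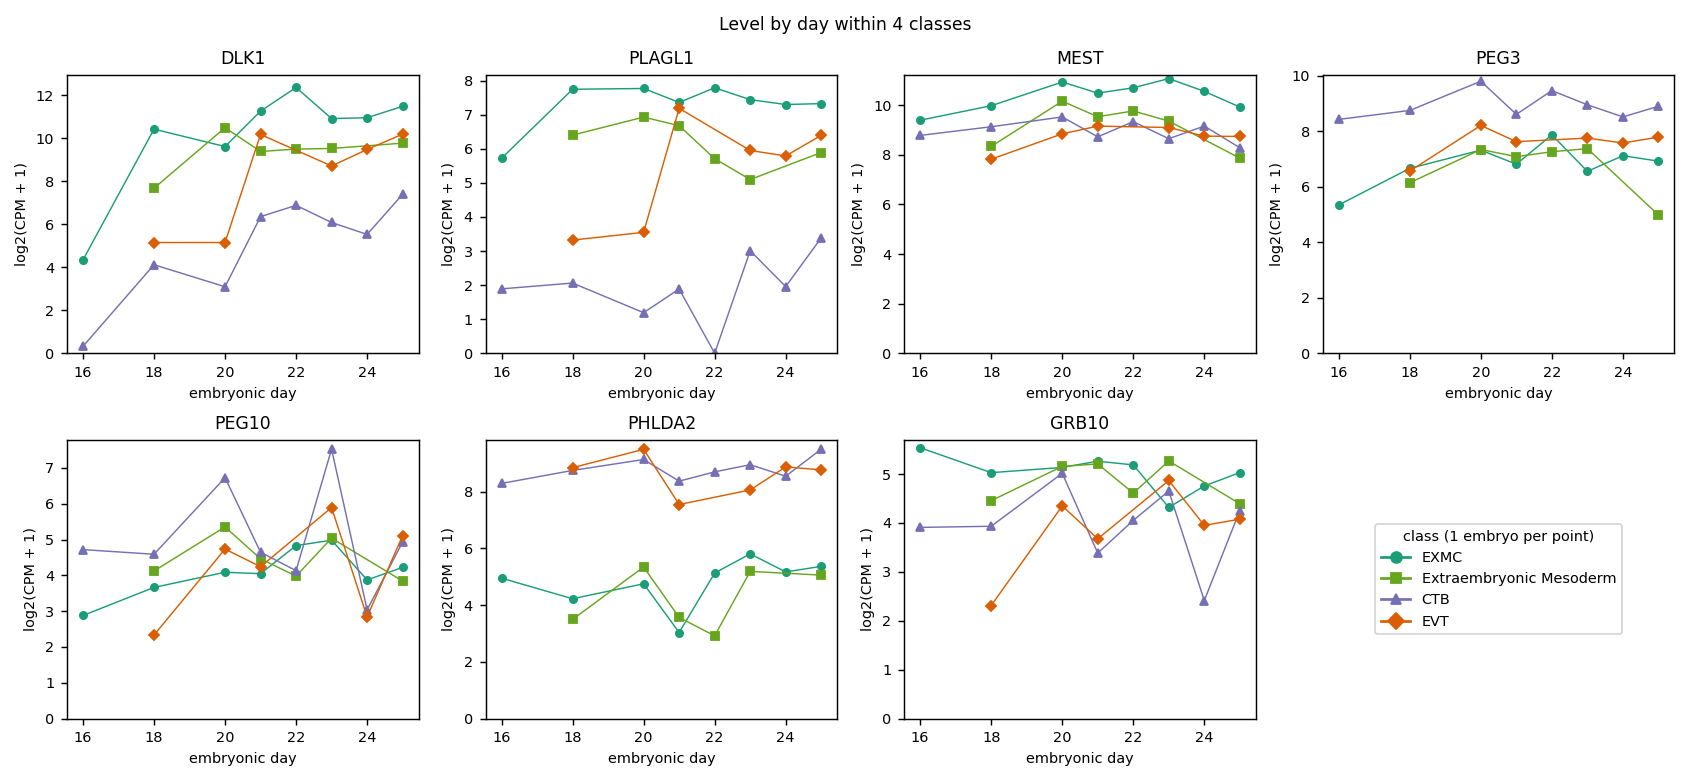
Level as log2(CPM + 1) by embryonic day in EXMC, Extraembryonic Mesoderm, CTB and EVT, 1 embryo per point and lines joining the points of a class. DLK1 in CTB runs from 0.246 CPM at E16 to 168 CPM at E25, and PHLDA2 in CTB stays between 311 and 720 CPM.

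Within classes, 0 of 7 genes passed for CTB, EVT, EXMC or Extraembryonic Mesoderm, where 0%, 0%, 0% and 0.0161% of all genes did in the edgeR test, with 791, 767, 429 and 898 genes at an unadjusted p under 0.05. DESeq2 called 62, 107, 17 and 76 genes in these fits. DLK1 had the steepest slopes of the 7 genes in CTB (0.62 ± 0.16, adjusted p = 0.5308), EVT (0.56 ± 0.26, adjusted p = 0.7785) and EXMC (0.41 ± 0.19, adjusted p = 0.9999). In EXMC it was 0.18 without E16-2 and 0.75 without E18, and in EVT 0.28 without E18. In Extraembryonic Mesoderm it was 0.15 ± 0.13 (adjusted p = 0.8091), and −0.04 without E18. The EXMC markers in EVT summed to 1388 CPM in E18, 1725 in E20, 16450 in E21, 6004 in E23, 9378 in E24 and 14650 in E25, moving with DLK1 there.

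PHLDA2 in CTB stayed within 311 to 720 CPM over all days (slope 0.09 ± 0.05, adjusted p = 0.7831), and PEG3 in CTB within 342 to 887 CPM (0.03 ± 0.06, adjusted p = 0.945). A joint fit of the 4 classes tested the difference of slopes for 6 pairs of classes, and 0% of 13117 genes passed in any pair (edgeR, with 516 to 1617 genes per pair at an unadjusted p under 0.05). Among the 7 genes MEST had the smallest adjusted p, with a slope in EVT 0.20 ± 0.07 per day above that in CTB (adjusted p = 0.5009).

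Other imprinted genes did not share one pattern. Of 51 on a list 38 were in the table and 34 could be tested across classes. In EXMC 12 were higher and 3 lower (median log2 fold 0.55), in CTB 5 and 11 (−0.27), in EVT 8 and 1 (0.23), in STB 4 and 1 (0.21), in Extraembryonic Mesoderm 5 and 2 (0.07), in EPI 1 and 5 (−0.40) and in Mesoderm 1 and 3 (−0.39). As shares of the list these were 44.1% in EXMC, 47.1% in CTB, 14.7% in STB, 20.6% in Extraembryonic Mesoderm, 17.6% in EPI and 11.8% in Mesoderm, and 23.5% higher in EVT, beside 24.5, 27.9, 20.5, 19.7, 19.4, 11.3 and 12.5% of all genes, and those of Extraembryonic Mesoderm, EPI and Mesoderm were near the shares of all genes. SNRPN, which encodes a splicing protein, was the one gene of the list higher in EPI (2.76 ± 0.37, adjusted p = 1.181e-06), where it had 852.5 CPM against 30.2 CPM in CTB, its lowest class. TFPI2, a protease inhibitor of the placenta that neighbours PEG10 in human, was higher in EVT (3.52 ± 0.46) and in EXMC (3.27 ± 0.43). DLX5, a homeobox gene, was higher in CTB (2.82 ± 0.35), EVT and STB, and NLRP2 in CTB (2.15 ± 0.26). CD81, a tetraspanin, was higher in EXMC (1.60 ± 0.23), and RB1, a cell cycle regulator, in EVT (1.95 ± 0.25). GNAS, a G protein subunit, and UBE3A, a ubiquitin ligase, passed in none of the 7 classes.

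IGF2 itself was not analysed here, but all 14 listed genes of the IGF axis were in the table and 13 could be tested. In EXMC 6 were higher and 1 lower (median 0.78), in CTB 0 and 4 (−0.66), in EPI 0 and 3 (−0.76), in Extraembryonic Mesoderm 3 and 1 (0.46), in Mesoderm 3 and 0 (0.25), and in EVT and STB 1 and 0 each. The shares called were 53.8% in EXMC, 30.8% in CTB and in Extraembryonic Mesoderm, 23.1% in EPI and in Mesoderm and 7.69% in STB, with 7.69% higher in EVT, and those of CTB and EPI were near the 27.9 and 19.4% of all genes. IGF2R, the receptor that clears IGF2 from the cell surface, was higher in EXMC (1.48 ± 0.25, adjusted p = 4.638e-05) and lower in CTB (−0.88 ± 0.28). IGF2BP2, an RNA-binding protein of IGF2 mRNA, and HMGA2, which is known to promote IGF2BP2 transcription, were both higher in EXMC (1.85 ± 0.19 and 2.32 ± 0.32) and lower in CTB (−3.66 ± 0.27 and −3.44 ± 0.45). IGF2BP3, of the same family as IGF2BP2, was higher in STB (0.82 ± 0.14) and lower in EXMC (−0.36 ± 0.11). PIK3R1, a subunit of PI3 kinase, was lower in EPI (−2.79 ± 0.64). The kinase AKT1 was higher in EXMC (0.78, adjusted p = 0.0247) and lower in EPI (−1.48, adjusted p = 0.02362), and AKT2 and IGF2BP1 passed in none of the 7 classes.

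CDKN1C inhibits cyclin and CDK complexes, and of 17 listed cell cycle genes 16 were in the table and tested. In CTB 10 were higher and 1 lower (median 0.87), in EVT 4 and 1 (0.25), in STB 4 and 0 (−0.16), in EXMC 5 and 2 (0.42), in Extraembryonic Mesoderm 2 and 3 (−0.53), in EPI 0 and 5 (−0.63) and in Mesoderm 0 and 2 (−0.10). The shares called were 68.8% in CTB, 43.8% in EXMC, 31.2% in EPI and in Extraembryonic Mesoderm, 25% in STB and 12.5% in Mesoderm, with 25% higher in EVT, and those of STB and Mesoderm were near the 20.5 and 11.3% of all genes. Cyclin E1 (CCNE1) and its kinase CDK2 were higher in CTB (2.23 ± 0.21 and 1.90 ± 0.16), EVT (2.75 ± 0.24 and 0.88 ± 0.19) and STB (2.00 ± 0.32 and 1.56 ± 0.23). Cyclin D2 (CCND2) was the gene lower in CTB (−3.60 ± 0.37), and it was higher in EXMC (1.78 ± 0.26) and Extraembryonic Mesoderm (1.99 ± 0.29). The proliferation markers MKI67 and PCNA were higher in CTB (0.90 ± 0.32 and 0.54 ± 0.18), CCND1 and CCND3 in CTB too (1.49 ± 0.34 and 0.84 ± 0.20, with CCND1 also higher in EXMC at 1.72 ± 0.33), and CDK4 in EXMC (0.40 ± 0.12). No gene of the 3 lists passed in a slope of day.

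The genes most like each imprinted growth gene were sought by Pearson's r of log2(CPM + 1) over the 45 sums of a class and embryo, among genes that reached 10 CPM in any of them. The sums share embryos, and the values are descriptions. For DLK1 they were F5 and PCOLCE (0.863 each) and MFAP4 (0.856), and for PLAGL1 NID2 (0.927), BMP5 (0.905) and HAND2 (0.904). For PHLDA2 they were HSD3B1 (0.952), CRYBG1 (0.948) and GCM1 (0.941), for PEG3 SKP2 (0.839), TP63 (0.801) and ITGB4 (0.768), and for PEG10 ANKMY2 (0.714), ZFHX3 (0.706) and MORC4 (0.704). MEST (CENPP, 0.772, GGH, 0.764 and RND3, 0.758) and GRB10 (FBN2, 0.714, ITGB5, 0.703 and LHFPL2, 0.675) had looser neighbours. Among the 7 genes themselves r was highest between DLK1 and PLAGL1 (0.694) and between PEG3 and PEG10 (0.614).

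Genes beside them on the chromosome, taken by order from a RefSeq gene table of the species (assembly T2T-MFA8v1.1), showed mixed patterns. SGCE, which shares its promoter region with PEG10 in human, had r = 0.531 with it over the 45 sums and was highest in Extraembryonic Mesoderm at 65.3 CPM, where PEG10 had 24.7 CPM. RTL1, in the DLK1 cluster, had r = 0.545 with DLK1 but reached no more than 1.63 CPM in any class pooled. On the other side of DLK1, BEGAIN and WARS1 had r = 0.519 and 0.483 with it. KCNQ1, near PHLDA2, had r = 0.747 and was highest in STB at 20.1 CPM. COPG2, beside MEST, had r = 0.104 and was highest in EPI at 22.1 CPM, the class lowest in MEST by the median over embryos. On the other side of MEST, CPA1 had r = 0.591 with it, and PHACTR2, near PLAGL1, had r = 0.689 with PLAGL1.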

How the data were processed

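Per the submitters' processing notes, reads were trimmed with cutadapt 1.15, aligned with STAR 2.6.0a and counted with HTSeq 0.10.0. The deposited table holds raw counts per gene and cell. The sources used here do not give the genome build, the strand, whether a count is a molecule or how doublets were handled, and no doublet caller was run. Classes, clusters and embryos are the authors' deposited annotation. Libraries 26 and 27 (149 cells), whose title and time label name different days, were left out.

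Counts were summed per class and embryo (at least 10 cells; 38 sums in the contrasts) and fitted with edgeR 4.0.16 in R 4.3.3 (filterByExpr, TMM, quasi-likelihood); limma 3.58.1 and DESeq2 1.42.0 were alternatives. The edgeR fits of the EXMC contrast, of the day slope over all cells and of the EXMC minus CTB slope difference were tried on simulated data. Those data held no embryo effect, and the other fits were not simulated. CPM are counts over the sum's total. Where a left-out embryo or a stricter cell minimum leaves a class with 1 sum, that sum is assumed to vary like the others. No label says whether embryos share parents, so p-values speak of these embryos only. Those of the class contrasts, with the embryo as a block, measure how class differences vary between embryos. Those of the day slopes on embryo sums measure the spread between embryos. Counting error alone lies behind the limit for 0 counts (3 counts). The named genes are all imprinted growth genes in the table, and of each other list the 8 with the highest level in a class; members and lists were chosen with earlier results of these data known.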

Additional observations from a re-analysis of the deposited data

Results flagged for a closer look

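MEST stood apart in 1 of the 6 libraries of E22. Library 28 had 529 CPM over all its cells, and the other 5 had 738 to 843 CPM. Its distance to the nearest library, as a share of the range, was above Dixon's critical value. About 1 group in 20 passes that value by chance, and no other gene of the 7 did so in any day with 4 to 10 libraries.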

How the results depend on the processing

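Of the 24 class contrasts of the imprinted growth genes that passed, 17 kept their direction and their side of the threshold in every alternative run for them, and none of the 24 changed direction; library sums could not be run for EPI and STB. The other 7 missed the threshold in at least 1 alternative and lie in EPI (DLK1, PEG10, PHLDA2, PLAGL1), EVT (PEG3), STB (PEG10) and Extraembryonic Mesoderm (PLAGL1). Per class, counts of all genes called stayed within 1.5 times under RLE scaling, no filter, DESeq2, and 2 alternatives chosen after seeing the data, EVT without fine cluster 18 and embryo sums over 5 classes. They moved further with library sums in EVT (4227, against 2269) and with at least 20 cells in EPI (1755, against 2749). Leaving out an embryo gave 1725 to 2779 in EPI (lowest without E21), 1485 to 2478 in EVT (lowest without E18) and 824 to 1703 in Mesoderm (lowest without E18, and 871 without E21), against 1604 in Mesoderm with all embryos. Of the 7 imprinted growth genes STB had 1 with at least 20 cells, where 2290 of 16452 genes were called. Mesoderm had 3 with DESeq2 (2144 of 14166 genes called), 3 with library sums (1860 of 12953) and 4 over 5 classes (1978 of 14421). EVT had 5 with library sums (4227 of 12953) and 1 over 5 classes (2646 of 14421). When an embryo was left out EVT had 2 to 4 (4 without E20, where 1730 of 13376 genes were called), Mesoderm 1 to 2 and STB 1 to 3 (2056 to 2898 genes called). The cause was not tested.

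Counts of day slopes past the threshold depended on the unit and the tool. By embryo 0 genes passed in all cells, CTB, EVT and EXMC and 2 in Extraembryonic Mesoderm, while DESeq2 gave 196, 62, 107, 17 and 76 genes. Library sums gave 2435, 363, 677, 190 and 248, with the library code as a term 1338, 85, 56, 721 and 55, and limma-voom, which took the embryo as a block, 197, 12, 230, 126 and 93. Without a filter EVT had 3 and Extraembryonic Mesoderm 11, and with at least 20 cells 10 and 1. Leaving out an embryo gave 0 to 1 genes in all cells, 0 to 3 in CTB, 0 to 10 in EVT, 0 to 7 in EXMC and 1 to 3 in Extraembryonic Mesoderm, and leaving out a library 0 to 1 in all cells. Of the 7 imprinted growth genes 0 passed by embryo in any edgeR fit, and DESeq2 on the same sums gave 1 in all cells and 1 in CTB. Library sums gave 5 in all cells, 1 in CTB, 2 in EVT and 2 in EXMC, with the code as a term 1, 2, 0 and 1 with 1 in Extraembryonic Mesoderm, and limma-voom 2, 1, 1 and 1. The cause was not tested.

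Slopes over all cells turned for MEST with the library code as a term (−0.135) and for GRB10 without E16 (0.00806). The DLK1 slope of Extraembryonic Mesoderm turned with library sums (−0.166), with the code as a term (−0.163), with limma-voom (−0.0535) and without E18 (−0.0405), and leaving out any 1 embryo it ran from −0.0405 to 0.292. The EVT contrasts of DLK1 and PLAGL1, which did not pass, turned to −0.761 and −0.272 without fine cluster 18 and to −1.93 and −1.89 with library sums over 5 classes, where both passed. With CPM averaged over cells, PEG3 was at 947 CPM in cluster 12, which 1 embryo fills, and MEST at 1720 CPM in cluster 9 (then below cluster 1), against pooled levels of 900.0 and 1910; the other highest levels of a gene by class or cluster moved by less than the spread between embryos, and so did all of them with the unplaced libraries added. Class contrasts were paired within embryos by the embryo block. For the days no paired analysis was possible because no embryo or library was sampled on more than 1 day.

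Each day after E16 rests on 1 embryo, so 9 embryos limit the slopes, and EPI, STB and CTB of E22 rest on 11 to 30 cells per embryo. PEG10 and GRB10 had few counts per cell, and the smallest difference between classes that could be detected was not computed. In CTB the standard errors of their contrasts were 0.29 and 0.265. Those of DLK1 and PLAGL1 were larger (0.46 each), and those of MEST, PEG3 and PHLDA2 smaller (0.16, 0.18 and 0.21).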
